A study of Mus musculus with 32 samples.

Results

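The transcripts of 10 neuropeptide genes were followed cell by cell in the median eminence (ME) of mice, namely Sst, Ghrh, Gal, Tac2, Tac1, Trh, Kiss1, Pdyn, Penk and Nts. They were chosen by gene symbol. By the symbols of GENCODE vM21, 9 of the 10 had a row among the 27998 genes of the count matrix. Kiss1 had none under its vM21 gene ID, but only 27645 of the matrix IDs matched a symbol. Whether an unmatched row holds counts of Kiss1 was not tested. Neurons were taken as cells with at least 20 unique molecular identifiers (UMIs, each marking 1 captured transcript) summed over Snap25, Syt1, Stmn2 and Stmn3, and 437 of 5982 cells passed. The cells came from the ME of male C57B/L6 mice aged 40 to 47 days. In the fasted group 5 mice had no food for 16 h, and in the refed group 5 mice had normal chow back for 1 h after the same fast. The tissue of each group was pooled, dissociated in papain and sorted for live cells, and each pool was split over 2 libraries made with 10x Genomics 3′ chemistry. Barcodes carry a suffix, 1 to 4, which nothing in the sources used here ties to a library or to a feeding state. The matrix was therefore taken as 1 sample in which both feeding states are mixed, without a test between groups and without a comparison of fasting with refeeding.

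The ME is where axons of hypothalamic neurons release hormones into the portal blood of the pituitary. Somatostatin (Sst) restrains and growth hormone releasing hormone (Ghrh) drives growth hormone secretion, while thyrotropin releasing hormone (Trh) drives thyrotropin secretion. Galanin (Gal), neurotensin (Nts), the tachykinin precursors Tac1 (substance P and neurokinin A) and Tac2 (neurokinin B) and the opioid precursors Pdyn (dynorphin) and Penk (enkephalin) are made by neurons of the arcuate nucleus, just above the ME. Arcuate neurons that make kisspeptin (Kiss1), neurokinin B and dynorphin together are known for their part in pulsatile release of gonadotropin releasing hormone.

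Kiss1 lies at chr1:133321875-133329901 on the plus strand of GRCm38 and is overlapped over its whole length by Gm28040, a longer gene on the same strand (chr1:133309827-133329901). All 779 exonic bases of Kiss1 lie inside exons of Gm28040, so 3′ reads of the 2 genes cannot be told apart, and Gm28040 is reported here under its own name and not as Kiss1. The last 30 coding bases of Kiss1 (chr1:133329613-133329642, plus strand), found in both annotated transcripts of Gm28040, show what the genes share.
Kiss1 and Gm28040: aggaggcaggcggcgcgggcagcacggggc

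Sst is a textbook target of the cAMP response element binding protein, which binds the element TGACGTCA. The 250 bases before each RefSeq transcript start in a promoter table (GRCm38.p6) were searched on both strands for this element, for its half-site (CGTCA or TGACG, counted also inside a full element) and for TATAAA. Promoters were listed for 9 of the 10 genes, with 11 windows in all, and Penk had no entry. These starts are not always those of the GENCODE genes whose positions are given here, so 7 of the 11 windows overlap the gene itself. Both windows of Ghrh, 1 of Pdyn and 248 bases of that of Kiss1 lie in introns of the gene, and 114 bases of the Sst, 182 of the Tac1 and 68 of the Nts window lie in its exons. Only the window of Sst held the full element, which 508 of 32851 promoters held (1.55%). The half-site was in 7 of the 11 windows, those of Sst, Tac1, Trh, Kiss1, Nts and both of Ghrh, and in 17.8% of all promoters. TATAAA was in 1 of the 11, a window of Ghrh, and in 12.4% of all promoters. The stretch around the Sst element, which lies in the first annotated exon of the GENCODE gene, is shown with a window of Ghrh, from an intron, and the windows of Gal and Tac2, from outside the genes, with these motifs in capitals (Sst chr16:23890874-23890903, minus strand; Ghrh chr2:157337427-157337676, minus strand; Gal chr19:3414545-3414794, minus strand; Tac2 chr10:127724228-127724477, plus strand). A match in these letters says nothing on whether a factor was bound.
Sst: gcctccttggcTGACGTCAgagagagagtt
Ghrh: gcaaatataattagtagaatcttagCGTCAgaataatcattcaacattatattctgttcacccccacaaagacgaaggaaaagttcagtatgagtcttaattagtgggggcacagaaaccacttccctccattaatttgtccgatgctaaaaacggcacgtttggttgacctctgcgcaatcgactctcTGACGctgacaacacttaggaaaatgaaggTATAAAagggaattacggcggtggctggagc
Gal: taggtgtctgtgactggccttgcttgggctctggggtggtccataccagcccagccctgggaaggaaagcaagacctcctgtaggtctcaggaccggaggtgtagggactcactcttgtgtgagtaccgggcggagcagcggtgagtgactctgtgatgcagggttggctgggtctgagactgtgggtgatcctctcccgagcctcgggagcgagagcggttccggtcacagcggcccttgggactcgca
Tac2: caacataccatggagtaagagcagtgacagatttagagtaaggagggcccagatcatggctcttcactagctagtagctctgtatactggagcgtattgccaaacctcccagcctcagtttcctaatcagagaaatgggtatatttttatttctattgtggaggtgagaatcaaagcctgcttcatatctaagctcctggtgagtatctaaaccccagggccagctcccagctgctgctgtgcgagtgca

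The rule for neurons was checked against genes it did not use. The neuronal genes Snhg11 (3110 against 208 CPM, UMIs per 1e+06), Celf4 (796 against 47.6 CPM) and Rbfox3 (88.2 against 2.85 CPM) were higher in the 437 cells than in the 5545 others. Of the 437, 435 fell in the 3 clusters that carried neuronal markers, and the remaining 2 fell in a mature oligodendrocyte-like and a pars tuberalis-like cluster. The marker list that named these clusters holds the 4 genes of the rule. Counts of cells in neuronal clusters, here and below, are therefore not independent of the rule. Cga, the glycoprotein hormone subunit of the adjoining pars tuberalis, stood at 19.3 CPM in neurons and 391 CPM in other cells, and no neuron held 10 UMIs of it. Barcode numbers 1 to 4 held 88, 68, 143 and 138 neurons, or 5.36%, 4.55%, 10.5% and 9.27% of their 1642, 1493, 1359 and 1488 cells. Neurons were deeper than other cells, with medians of 14479 and 3658 UMIs, in part because the rule counts raw UMIs and so picks deep cells. It took 343 of 368 cells of the neuronal cluster led by Sst and 59 of 65 of that led by Agrp. Of the 99 cells led by Scg2, Avp and Vip, with a median of 6409 UMIs, it took 33. Shares of neurons given below thus leave out most of that cluster. Just inside the rule, 15 of 16 cells with 20 or 21 UMIs of the 4 genes lay in neuronal clusters, and just outside it all 21 cells with 18 or 19 UMIs did. In the latter, 1 cell held 10 or more UMIs of Sst and 1 held 10 or more of Tac1.

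Most peptide transcripts sat in few neurons that each held many of them. A neuron with at least 10 UMIs of a gene is called high for it here. By this measure 60 neurons (13.7%, 95% exact Clopper-Pearson interval 10.6 to 17.3) were high for Sst, 49 (11.2%) for Tac2, 42 (9.61%) for Gal, 21 (4.81%) for Ghrh, 20 (4.58%) for Tac1 and 10 (2.29%) for Trh. Only 6 neurons were high for Penk, 4 for Nts and 3 for Pdyn. High neurons held 98.4% of the neuronal Sst UMIs, 97.9% of Tac2, 97.8% of Ghrh, 92.7% of Tac1, 92.3% of Gal, 69.3% of Trh, 66.7% of Nts, 42.6% of Penk and 11.2% of Pdyn. Pdyn was thus spread thinly, with 1 to 9 UMIs in 120 neurons. These intervals, and the exact Poisson intervals given for CPM, cover counting error only.

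**Figure D1:**
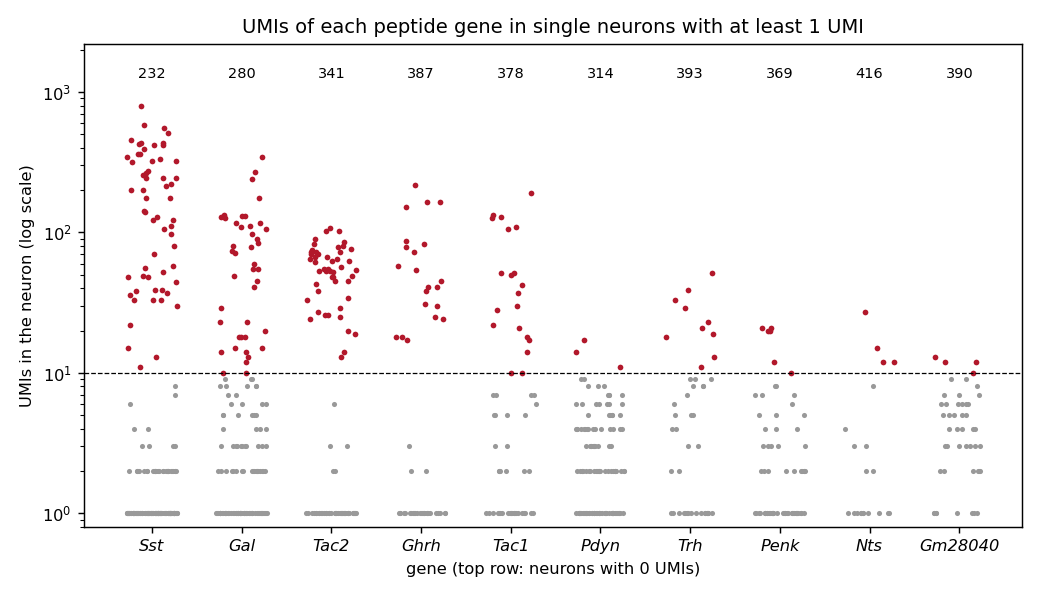
UMIs per neuron (log axis) of each peptide gene and of Gm28040, 1 point per neuron with at least 1 UMI; the dashed line marks 10 UMIs and the top row counts neurons at 0 among 437. Sst, Ghrh and Tac2 leave almost no neurons between 5 and 9 UMIs (3, 0 and 1), whereas Gal has 20 there.

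Against other cells, 7 of the 9 genes were at least 4-fold (2 log2 units, after adding 10 CPM to both sides) higher in neurons, as were 321 of the 14747 genes compared (2.18%). Sst stood at 2038 CPM (95% Poisson interval 2002 to 2074) in neurons and 38.1 CPM in other cells, a 53.5-fold difference and the largest of all genes compared on that log2 scale. Gal was 48.6-fold (593 against 12.2 CPM), Tac2 39.6-fold (452 against 11.4 CPM), Trh 24.4-fold (60.2 against 2.47 CPM), Ghrh 20.6-fold (242 against 11.8 CPM), Pdyn 14.3-fold (60.8 against 4.24 CPM) and Tac1 9.92-fold (209 against 21.1 CPM) higher. Nts was 15.5-fold higher (16.1 against 1.04 CPM), but at this low level its log2 ratio with the added 10 CPM was 1.24. Penk was the exception, at 39.6 CPM in neurons and 35.0 CPM in other cells, so that only 23.2% of its UMIs were in neurons. The counts are of 3′ ends, 1 per captured transcript, and were not divided by gene length.

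**Figure D2:**
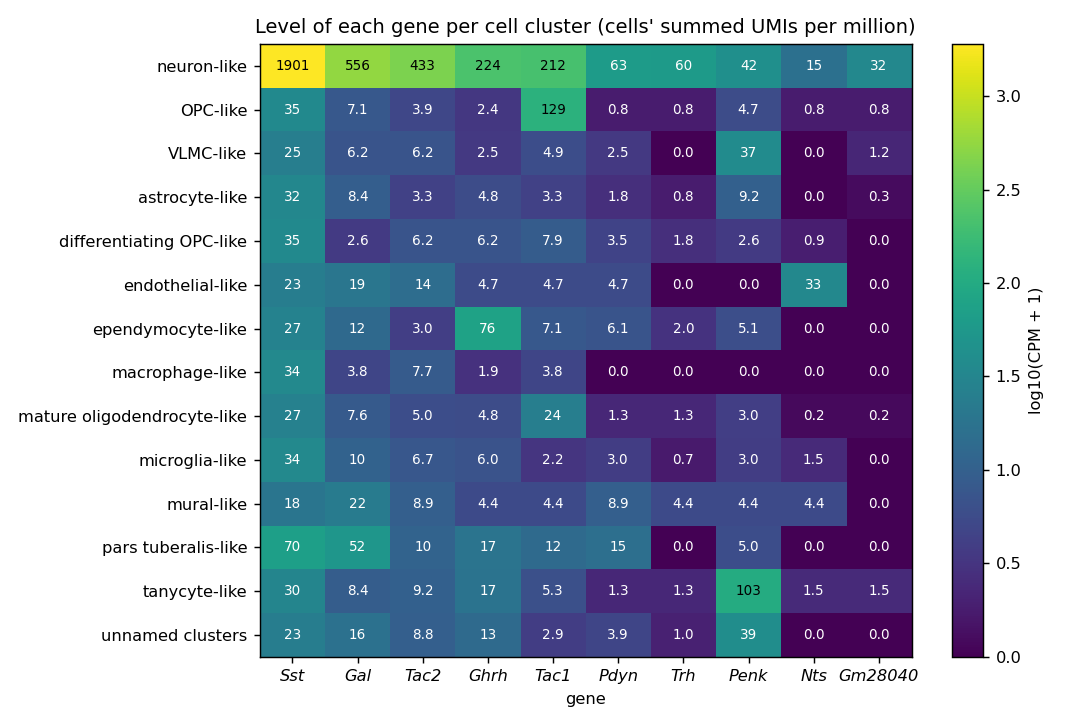
Heat map of CPM (printed in each cell, color on a log10 scale of CPM + 1) of each peptide gene and Gm28040 (columns) by cell type (lines), from clusters built without these genes, with all 532 cells of neuron-like clusters in the top line. Apart from neuron-like cells, Tac1 is brightest in oligodendrocyte precursor (OPC)-like (129 CPM), Ghrh in ependymocyte-like (76.0 CPM) and Penk in tanycyte-like cells (103 CPM).

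Droplets also take up free RNA from broken cells, so the neurons below 10 UMIs of a gene were set beside other cells. Sst stood at 39.5 CPM (34.3 to 45.3) in these 377 neurons and at 38.1 CPM (35.6 to 40.7) in other cells, and these intervals overlap. Other cells include neuron-like cells that the rule missed and, for Tac1 and Ghrh, OPC-like and ependymocyte-like cells with levels of their own, so single types were set beside them too. Ghrh stood at 5.67 CPM (3.90 to 7.96) in the neurons below 10 UMIs and 4.84 CPM (2.92 to 7.57) in astrocyte-like cells, and these intervals overlap. Tac1 stood at 16.2 CPM (13.1 to 19.8), above astrocyte-like (3.31 CPM), microglia-like (2.24 CPM) and tanycyte-like cells (5.26 CPM). Tac2 stood at 10.5 CPM (7.98 to 13.6), above astrocyte-like (3.31 CPM) but near tanycyte-like cells (9.20 CPM). A UMI of Sst in 46.9% of neurons and 11.5% of other cells is read against that background. In cells thinned to 2000 UMIs each, which left out 304 other cells, the shares were 18.8% and 5.74%. Gal (51.7 against 12.2 CPM), Trh (18.9 against 2.47 CPM), Pdyn (54.4 against 4.24 CPM) and Nts (5.43 against 1.04 CPM) were above other cells even in the neurons below 10 UMIs, and so was Gm28040 (27.7 against 0.649 CPM). After thinning, a UMI of Pdyn was found in 10.1% of neurons and 0.553% of other cells, and one of Gal in 15.3% and 1.83%.

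Sst (chr16:23889573-23890958, minus strand) had the widest range. The 60 high neurons held from 11 to 801 UMIs with a median of 158, and 37 of them held 100 or more. By barcode number (1 to 4) there were 11, 15, 20 and 14 of them, and neuronal Sst stood at 2043, 2779, 2207 and 1494 CPM. No Sst-high neuron was high for Ghrh, Gal or Tac2, 1 was high for Trh, and 1 was high for Tac1 and Nts. Set against all other neurons, the Sst-high neurons had 11 of 10726 other genes at least 4-fold higher (0.103%) and 14 lower (0.131%), and the lower ones included Tac2 (6.48 against 530 CPM), Ghrh (7.56 against 284 CPM), Gal (43.2 against 690 CPM), Tac1 (14 against 244 CPM) and Gm28040 (0 against 216 UMIs). The higher genes included Nrgn, a calmodulin-binding protein of neurons (794 against 132 CPM, 49 of 60 neurons with a UMI), and Sstr2, a somatostatin receptor (82.1 against 11.3 CPM, 34 of 60). The list of receptors and peptide-degrading enzymes had 1 of 9 genes higher, Sstr2, with a median log2 ratio of 0.07 beside 0.00 over all genes compared. Sowaha (72.3 against 9.54 CPM) and Cbln4, a secreted synaptic organizer (225 against 46.6 CPM), were also higher. Without the high neuron that held most of each gene, the log2 ratios were 2.43 for Nrgn, 1.97 for Sstr2, 2.00 for Sowaha and 1.98 for Cbln4, so that only Nrgn stayed clearly past 2. Otp, a homeobox factor of hypothalamic peptide neurons, was found in 55 of 60 Sst-high neurons and 23.9% of others (540 against 141 CPM, log2 ratio 1.86). The vesicular GABA transporter Slc32a1 stood at 274 against 168 CPM and the glutamate transporter Slc17a6 at 17.3 against 84.0 CPM, both within 4-fold after the added 10 CPM. Across the 437 neurons, which share their libraries and differ in depth, Sst followed Otp (Pearson r = 0.51), Sstr2 (r = 0.47) and Nrgn (r = 0.44) on a log2 scale of UMIs per 10000. Of the Sst-high neurons, 10 were high for Agrp, 8 for Npy and 7 for Cartpt, 3 peptides of feeding circuits, and 62, 60 and 64 neurons in all were high for these.

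Ghrh (chr2:157329497-157347506, minus strand) was either high or nearly absent. The 21 high neurons held 17 to 219 UMIs with a median of 45, and no neuron held 5 to 9. They numbered 3, 5, 8 and 5 in barcode numbers 1 to 4, with neuronal levels of 218, 336, 183 and 271 CPM. All 21 were also high for Gal, and they made up 50% of the 42 Gal-high neurons. In them Gal reached 20 to 345 UMIs with a median of 106, and they held 67.1% of all neuronal Gal UMIs. Ghrh and Gal had r = 0.70 over the 437 neurons.

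The Ghrh-high neurons differed from other neurons in 17 genes at least 4-fold higher (0.158%) and 46 lower (0.429%), with a median log2 ratio of -0.11 over all genes compared. The higher genes included Slc18a3, the vesicular acetylcholine transporter (119 against 2.23 CPM, 16 of 21 neurons), Foxp2, a forkhead factor (172 against 9.62 CPM, 15 of 21), Slc10a4, a vesicular transporter family member (111 against 4.98 CPM, 18 of 21), and Gsx1, a homeobox factor needed for Ghrh neurons to form (131 against 8.07 CPM, 18 of 21). Th, the rate-limiting enzyme of catecholamine synthesis, was in 20 of 21 (210 against 22 CPM), and it was the 1 of 7 transmitter genes that was higher. The glutamate transporter gene Slc17a6 was the 1 that was lower, with 2 UMIs in all, and Gad2, which makes GABA, was found in 20 of 21. Of the other neuropeptides compared, 1 of 8 was higher, Cartpt (2806 against 575 CPM, 11 of 21 neurons high for it), and 5 were lower. Few neurons in all were high for some of the 8 (12 for Pomc, 12 for Vip), so lower sums in 21 neurons say little. Penk was higher too, in 14 of 21 neurons and at 248 against 27.3 CPM. Among the processing enzymes and granins 1 of 10 was lower, the prohormone convertase Pcsk2 (17.5 against 150 CPM). Otp, Prlr (the prolactin receptor) and Oprk1 (the dynorphin receptor) had 0 UMIs in these neurons, and 0 of 21 allows a share of neurons with a UMI of up to 14.3%. Beside Gal, the genes nearest to Ghrh across neurons were Slc18a3 (r = 0.68) and Slc10a4 (r = 0.63).

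Gal (chr19:3409915-3414544, minus strand) was also high in 21 neurons in which Ghrh never exceeded 1 UMI. They held 10 to 177 Gal UMIs with a median of 18, below the 106 of the Ghrh-high set, and Th was found in 2 of them against 20 of 21. In this set 8 neurons were also high for Tac2 (Gal 13 to 41 UMIs, median 18), 4 for Tac1 (15 to 79 UMIs, median 47), and 9 for none of these. There were 10, 7, 11 and 14 Gal-high neurons in barcode numbers 1 to 4, and Gal stood at 432, 608, 615 and 664 CPM. All Gal-high neurons together had 6 genes at least 4-fold higher (0.0559%) and 9 lower (0.0839%) than other neurons. Th was among the former (119 against 21.5 CPM, log2 ratio 2.03), but at 1.78 without the neuron that held most of it.

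Tac2 (chr10:127724478-127731768, plus strand) marked 49 high neurons with 13 to 107 UMIs and a median of 55. In barcode numbers 1 to 4 there were 17, 10, 9 and 13 of them, and Tac2 stood at 787, 545, 290 and 360 CPM. The share of neurons high for Tac2 was 19.3% (11.7 to 29.1) in number 1 and 6.29% (2.92 to 11.6) in number 3, the highest and the lowest of the 4. These intervals are over cells and hold no spread between libraries. Whether feeding state or library had a part in this was not tested.

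Pdyn and Gm28040 were found in the Tac2-high neurons together. Gm28040 had a UMI in 45 of the 49 (91.8%) and in 0.515% of other neurons (317 against 1.81 CPM), and 95.4% of its neuronal UMIs lay in these cells, which held 10.6% of all neuronal UMIs. Pdyn had a UMI in 44 of 49 (89.8%) and in 20.4% of other neurons (284 against 34.4 CPM), with 49.3% of its neuronal UMIs in these cells and a median of 3 and a highest value of 14 UMIs per cell. Few therefore reached 10 UMIs, and by that measure only 2 neurons were high for both Tac2 and Pdyn. Gal had a UMI in 41 of 49. Tac2 had r = 0.88 with Gm28040, 0.78 with Nhlh2, 0.72 with Prlr and 0.57 with Pdyn, and Pdyn had r = 0.55 with Gm28040. Nts had 0 UMIs in the 49 neurons, which allows a share of up to 6.12%. Sst (33.8 against 2274 CPM), Ghrh (1.54 against 271 CPM), Tac1 (4.61 against 233 CPM) and Trh (6.15 against 66.5 CPM) were at least 4-fold lower.

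**Figure D3:**
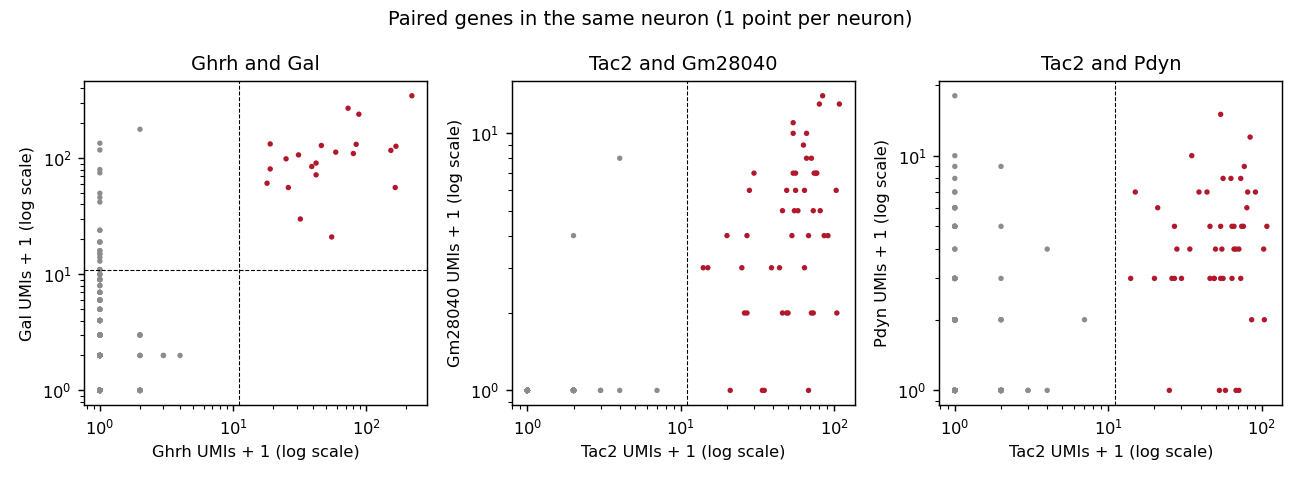
UMIs + 1 per neuron (log axes) of Ghrh and Gal, Tac2 and Gm28040, and Tac2 and Pdyn, with 1 point for each of 437 neurons, dashed lines at 10 UMIs and the neurons high for Ghrh (left) or Tac2 (middle and right) in red. All 21 Ghrh-high neurons have at least 20 UMIs of Gal, and 45 and 44 of the 49 Tac2-high neurons lie above 0 for Gm28040 and Pdyn.

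The Tac2-high neurons differed from the rest in 25 genes at least 4-fold higher (0.233%) and 44 lower (0.41%). Of 16 hormone receptors and factors of arcuate neurons, 3 were higher, including Prlr (343 against 32.6 CPM, 49 of 49 neurons) and the estrogen receptor Esr1 (141 against 17.6 CPM, 43 of 49). In the same list 3 were lower, Otp with 0 UMIs, Isl1 (log2 ratio -3.97) and Six6 (-2.16), and the list's median log2 ratio was -0.68 beside -0.07 over all genes. Of 7 transmitter genes, Slc17a6 was higher (304 against 46.8 CPM, 48 of 49), and 4 were lower, the GABA genes Slc32a1 (-3.07), Gad1 (-2.30) and Gad2 (-2.96) and Th with 0 UMIs. Tacr3, the receptor of neurokinin B, was the 1 receptor of 9 that was higher, with 35 of its 40 neuronal UMIs in 18 of the 49 cells. Nhlh2, a basic helix-loop-helix factor (252 against 6.89 CPM, 44 of 49), Rxfp1, a relaxin receptor (111 against 1.45 CPM, 26 of 49), and Nr4a2, a nuclear receptor (129 against 3.99 CPM, 30 of 49), were also higher. Of 8 other neuropeptides 6 were lower, with Cartpt in 2 of 49 neurons (log2 ratio -5.92). For some of the 8 few neurons in all were high (12 for Pomc, 12 for Vip), so their sums rest on few cells.

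Tac1 (chr6:7554879-7565834, plus strand) was high in 20 neurons with 10 to 191 UMIs and a median of 39.5. Number 4 held 10 of them and numbers 1 to 3 held 2, 3 and 5, and Tac1 stood at 109, 164, 195 and 309 CPM in numbers 1 to 4. Against other neurons 5 genes were at least 4-fold higher (0.0466%) and 17 lower (0.158%). Of 8 other neuropeptides 2 were higher, Adcyap1 and Avp, and 4 were lower, Agrp, Npy (90.8 against 3848 CPM), Pomc and Vip (5.50 against 243 CPM), with a median log2 ratio of -2.20. Of all 437 neurons, 62, 60, 12 and 12 were high for these 4, and 0 of the 20 were. Since 0 of 20 allows a share of up to 15%, the lower sums say little about so few neurons. Adcyap1, the precursor of the neuropeptide PACAP, was higher (162 against 9.13 CPM), in 6 of 20 neurons, and all 3 neurons high for it were Tac1-high. The higher level of Avp (vasopressin) rested on 1 neuron with 2885 of the 2910 UMIs, and the log2 ratio went from 3.08 to -3.50 without it. Aard (223 against 40.2 CPM, log2 ratio 2.22) stood at 1.58 without its highest neuron. Lower factors were Otp (log2 ratio -3.07), Six6 (-2.46) and the growth hormone receptor Ghr (-2.09). Tac1 and Adcyap1 had r = 0.36.

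Nts (chr10:102481756-102490486, minus strand) was scarce. The 4 high neurons held 27, 15, 12 and 12 UMIs, 66.7% of the neuronal total, and 3 of the 4 were also high for Tac1, of which 2 were high for Gal and 1 for Sst. In the Tac1-high neurons Nts stood at 146 against 7.93 CPM. In barcode numbers 1 to 4 neuronal Nts was at 1.63, 14.3, 22.1 and 19.8 CPM. No gene reached r = 0.3 with Nts.

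Trh (chr6:92242061-92244650, minus strand) was high in 10 neurons, which held 51, 39, 33, 29, 23, 21, 19, 18, 13 and 11 UMIs. Barcode numbers 1 to 4 held 2, 1, 2 and 5 of them, and Trh stood at 57.7, 27.6, 58.7 and 79.4 CPM. 9 of the 10 were high for no other peptide of the 9, and 1 was also high for Sst. Against other neurons 5 genes were at least 4-fold higher (0.0466%) and 57 lower (0.531%). These 10 neurons are the smallest group so compared, and far fewer genes were lower with 50 CPM added in place of 10. Cox6a2, a subunit of cytochrome c oxidase (459 against 65.6 CPM, 8 of 10), the nuclear factors Nfix (187 against 22.2 CPM, 7 of 10) and Nfib (93.4 against 15.1 CPM, 5 of 10), and St18, a zinc finger factor (85.6 against 6.62 CPM, 6 of 10), were higher. Nfib fell to a log2 ratio of 1.65 without its highest neuron. Slc17a6, Esr1, Prlr, Six6 and Penk had 0 UMIs in these cells, but 0 of 10 allows a share of up to 30%. The nearest genes to Trh were St18 (r = 0.33) and Nfix (r = 0.32).

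Pdyn (chr2:129686565-129699844, minus strand) stood at 79.7, 71.6, 43.7 and 61.1 CPM and Penk (chr4:4133531-4138819, minus strand) at 20.3, 35.8, 43.2 and 49.9 CPM in the neurons of barcode numbers 1 to 4. The 3 Pdyn-high neurons held 17, 14 and 11 UMIs, and 2 of them were Tac2-high. The 6 Penk-high neurons held 21, 21, 20, 20, 12 and 10 UMIs. Of these 2 were high for Ghrh and Gal, 1 for Tac1, and 3 for no other peptide. Penk had r = 0.34 with Ghrh.

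**Figure D4:**
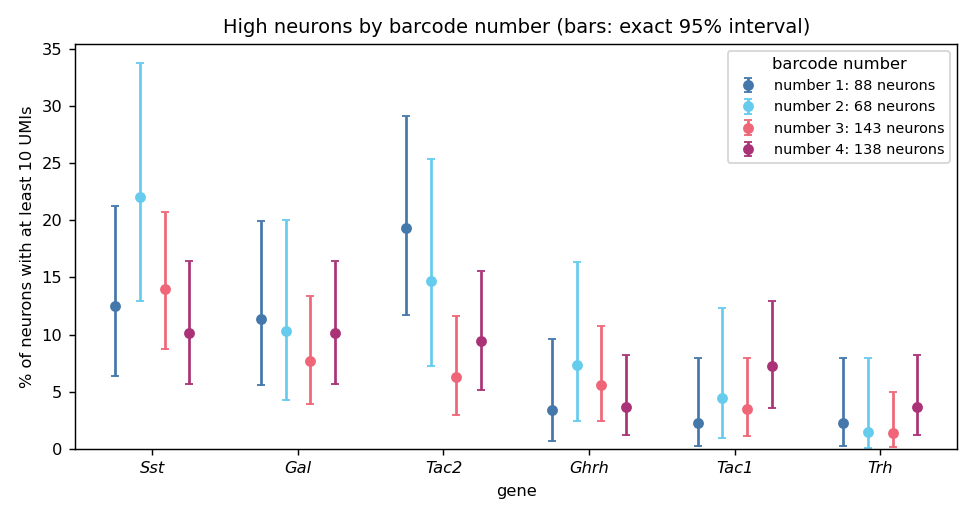
Percent of neurons with at least 10 UMIs of Sst, Gal, Tac2, Ghrh, Tac1 and Trh in barcode numbers 1 to 4 (points), with 95% exact Clopper-Pearson intervals (bars). Tac2 runs from 19.3% in number 1 to 6.29% in number 3.

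Few neurons were high for more than 1 peptide. Of 437 neurons, 265 were high for none of the 9, 134 for 1, 33 for 2 and 5 for 3. The most frequent combinations were Sst alone (58 neurons), Tac2 alone (39), Ghrh with Gal (19), Tac1 alone (14), Gal alone (9), Trh alone (9) and Gal with Tac2 (8). The 5 neurons high for 3 peptides were 2 with Gal, Tac1 and Nts, 2 with Ghrh, Gal and Penk, and 1 with Sst, Tac1 and Nts. Scrublet called 7 of the 437 neurons doublets.

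Genes for the making and sensing of these peptides were compared between neurons and other cells as well. Of 10 processing enzymes and granins 2 were at least 4-fold higher in neurons, Pcsk1n (4291 CPM, log2 ratio 2.18) and Scg2 (1496 CPM, log2 ratio 2.61). The list's median log2 ratio was 0.91, beside -0.07 over all genes. Other cells include the pars tuberalis-like cells, in which Scg2 (4951 CPM), Scg5 (1830 CPM), Chga (29070 CPM), Chgb (9570 CPM) and Pcsk1 (49.9 CPM) were highest. Pcsk1n was highest in neuron-like cells. Pcsk1 stood at 24.8 CPM in neurons and 2.16 CPM in other cells, but its log2 ratio with the added 10 CPM was 1.52. Of 8 transmitter genes 4 were higher, Gad1, Gad2, Slc32a1 and Slc17a6, with a median of 2.29. Of 23 receptor and enzyme genes with a row, 12 had enough UMIs to compare, 0 were higher and 1 was lower, Ntsr2, with a median of 0.15, and 470 of all 14747 genes were lower (3.19%). Because 10 CPM was added, genes at low levels could differ and stay uncalled. Sstr2 stood at 21.9 against 1.95 CPM (log2 ratio 1.42), Oprk1 at 37.3 against 4.11 CPM (1.75) and Tacr3 at 6.49 against 0.130 CPM (0.70). Beside Ntsr2, negative log2 ratios were those of Sort1 (-0.92), Galr2 (-0.08) and Mme (-0.06). Ntsr2, a neurotensin receptor known from astrocytes, reached 3090 CPM in astrocyte-like cells, of which 99.9% had a UMI. Sstr1 stood at 55.2 CPM in OPC-like cells (20.3% with a UMI) and 20.4 CPM in neuron-like cells. Trhde, the enzyme that degrades thyrotropin releasing hormone, stood at 18.9 CPM in tanycyte-like and 18.2 CPM in ependymocyte-like cells. Sort1, which also binds neurotensin, stood at 82.2 CPM in mature oligodendrocyte-like cells, and Ece1, a peptidase, at 181 CPM in endothelial-like cells. Ghrhr, the receptor of Ghrh, Tacr2 and Trhr2 had 0 UMIs in the whole matrix.

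Outside neurons and leaving Sst aside, the highest levels that did not rest on 1 cell were those of Tac1 in OPC-like, Penk in tanycyte-like and Ghrh in ependymocyte-like cells. Sst, the most abundant neuronal peptide of the 9, was at 17.8 to 35.5 CPM over 11 non-neuronal types (69.8 CPM in pars tuberalis-like cells) and served as the yardstick. The source of these Sst UMIs was not tested. Tac1 stood at 129 CPM (110 to 150) in 311 OPC-like cells, where 123 (39.6%) had a UMI, against 7.93 CPM in the differentiating OPC-like cells. Barcode numbers 1 to 4 gave 102, 142, 97.5 and 185 CPM. Single cells held little, 93 with 1, 22 with 2, 7 with 3 and 1 with 5 UMIs. The level was 35.3-fold (30.1 to 41.2) above the one that the neuronal ratio of Tac1 to Sst gives from the Sst of these cells. Intervals of such folds, here and below, cover the counting error of the gene alone and are too narrow. They leave out that of Sst, which had 45 UMIs in OPC-like cells (25.9 to 47.5 CPM). After thinning to 2000 UMIs, 24.3% of OPC-like cells held a UMI. Cells with and without Tac1 had medians of 3 and 2 UMIs of the 4 neuronal genes and depths of 3959 and 4050 UMIs.

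Ghrh stood at 76.0 CPM (59.8 to 95.2) in 200 ependymocyte-like cells, which line the ventricle, with a UMI in 48 of them (24.0%, or 14% after thinning) and at most 4 in a cell. Barcode numbers 1 to 4 gave 70.2, 39.5, 77.1 and 97.5 CPM, and the level was 23.3-fold above that given by the neuronal ratio to Sst. In tanycyte-like cells, the related glia of the ventricle floor, it was 16.9 CPM and 4.71-fold above. By cluster, it was 26.5 CPM in the 358 cells led by Mia, Mlc1, Mt3 and Gfap and 12.8 and 14.4 CPM in the 2 clusters with Rax among their leading genes. The first of these clusters has no tanycyte marker among its 10 leading genes and was named from the whole marker list. Its leading genes include Gja1 of the astrocyte list and Rarres2 of the ependymocyte list. At Leiden resolution 2 a cluster of 312 cells led by Gfap, Mlc1 and Mia was left unnamed, so this name depends on the clustering.

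Penk stood at 103 CPM (95.6 to 112) in 1415 tanycyte-like cells, above the 39.6 CPM of neurons, and 283 of them (20%, or 12.2% after thinning) had a UMI. Barcode numbers 1 to 4 gave 110, 113, 111 and 79.6 CPM, 31 cells held 5 or more UMIs, and the highest held 12. The level was 176-fold above that given by the neuronal ratio to Sst. Penk differed between the tanycyte-like clusters, with 176 CPM in the 565 cells led by Mia, 6330403K07Rik and Rax, 84.3 CPM in the 358 led by Mia, Mlc1, Mt3 and Gfap, and 13.9 CPM in the 492 led by 6330403K07Rik, Crym and Rax. In vascular leptomeningeal cell (VLMC)-like cells it was 36.9 CPM, and in astrocyte-like cells 9.18 CPM (36 UMIs in 24 cells, 14.7-fold above the neuronal ratio, 10.3 to 20.4). Penk was also above that ratio in ependymocyte-like (9.54-fold), OPC-like (6.87-fold), mature oligodendrocyte-like (5.86-fold) and microglia-like cells (4.58-fold), on few UMIs. Endothelial-like and macrophage-like cells held 0, but the neuronal ratio gave only 0.0971 and 0.350 UMIs there, too few to set these types apart from the others. Only 23.2% of Penk UMIs were in neurons, so a ratio taken from neurons is a limited yardstick for it.

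**Figure D5:**
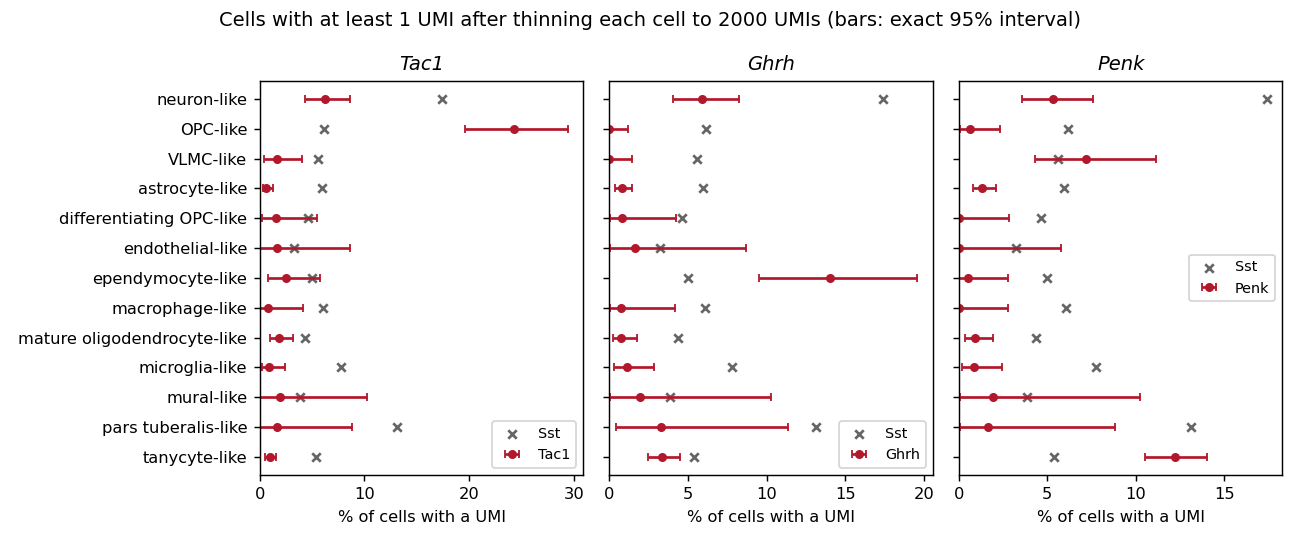
Percent of cells with a UMI of Tac1, Ghrh or Penk (red points, bars for the 95% exact Clopper-Pearson interval) and of Sst (gray crosses) by cell type, after thinning each cell to 2000 UMIs. Tac1 in OPC-like (24.3%), Ghrh in ependymocyte-like (14%) and Penk in tanycyte-like cells (12.2%) lie above the Sst share of the same cells (6.15%, 5.00% and 5.38%).

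Some levels outside neurons rested on 1 cell. Gal in pars tuberalis-like cells went from 52.3 to 2.51 CPM without a cell with 20 UMIs, Penk in unnamed clusters went from 38.9 to 12.7 CPM without a cell with 27, and Nts in endothelial-like cells was 7 UMIs in 1 cell. Tac1 in mature oligodendrocyte-like cells rested on 1 cell in part, since it went from 24.1 to 15.4 CPM without a cell with 40 UMIs, and 45 cells had a UMI. Few UMIs gave other levels above the neuronal ratio to Sst. Pdyn was 7.45-fold above it in ependymocyte-like (6 UMIs, 2.73 to 16.2) and 7.18-fold in pars tuberalis-like cells (6 UMIs, 2.64 to 15.6), Nts 6.21-fold in tanycyte-like cells (9 UMIs, 2.84 to 11.8) and Gal 2.29-fold in unnamed clusters (16 UMIs, 1.31 to 3.72).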

How the data were processed

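Cells of the ME of fasted and refed mice were profiled with 10x Single Cell 3′ V2 kits. The authors mapped reads to mm10 and counted UMIs with Cell Ranger 2.0 (submitters' processing notes), and the deposited matrix holds raw UMI counts of 27998 Ensembl genes in 5982 cells, 29288898 UMIs in all. The 4 barcode numbers held 6508038 to 7806887 UMIs. Of the gene IDs 27645 matched a symbol of GENCODE vM21 (GRCm38). An unmatched gene keeps its ID. No cell was removed, and 21 barcode sequences occur under 2 numbers.

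Cells were clustered with scanpy 1.11.5 (2000 variable genes without the peptide genes and Gm28040, 30 principal components, 15 neighbours, Leiden resolution 1 with leidenalg 0.10.2) and called X-like by marker lists. Scrublet called 52 cells (0.869%) doublets, which were kept except in 1 alternative. Levels are summed UMIs per 1e+06 (CPM). Ratios are log2 after adding 10 CPM, over genes with at least 30 UMIs in the cells compared, and 2 log2 units (4-fold) counts as higher or lower. With 1 sample there is no test and no p-value. Intervals are 95% exact Clopper-Pearson or Poisson (scipy 1.17.1), and where a count was 0 the limit given is that of 3 counts. UMIs of 1 cell are not independent.

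The text names the peptide genes, the genes of 5 lists (receptors and breakdown, processing and granins, transmitters, other neuropeptides, and hormone receptors and factors of arcuate neurons), the up to 3 genes with the highest Pearson r of at least 0.3 over neurons, and the up to 5 genes with the highest ratio past 2 log2 units that had a UMI in at least 50% of the high neurons. Gm28040, the clusters of tanycyte-like cells and the levels outside neurons were chosen after their values were seen. The peptide genes and lists were chosen with earlier results of these data known. Of the list genes Galr3 had no matched row, and Crh and Gnrh1 had 7 and 6 UMIs in all. Promoter windows are from RefSeq (GRCm38.p6).

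Alternatives were other limits for neurons (10 or 40 UMIs, or the neuron-like clusters) and for high neurons (5 or 20 UMIs, or 1000 CPM), doublets or shallow cells left out, each barcode number left out, other clusterings, thinned cells, another pseudocount and a higher minimum of UMIs. A further alternative left out neurons with at least 10 UMIs of Cga and removed no cell. The steps were tested on simulated data. The comparison of fasted with refed cells was not made. Some genes that these rules select are not reported here.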

Additional observations from a re-analysis of the deposited data

Results flagged for a closer look

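In 2 of 30 sets of values over the 4 barcode numbers, 1 number stood apart from the other 3 by more than the Dixon criterion allows, which chance does in about 1 in 20 such sets. Gm28040 in neurons was highest in number 1, at 76.4 CPM, with 19.6 to 28.6 CPM in the others. The same number had the highest neuronal Tac2 (787 CPM) and Pdyn (79.7 CPM) and the most Tac2-high neurons (17). Pdyn in cells other than neurons was highest in number 3, at 9.14 CPM, with 2.43 to 3.04 CPM in the others. Whether feeding state, library or dissection had a part in either was not tested.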

How the results depend on the processing

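Of 443 recomputed values, 356 counted as unchanged, 79 moved, 7 fell below the 4-fold limit and 1 changed sign. Unchanged shares and levels stayed within their counting interval, and unchanged counts of genes within 1.5 times. Unchanged log2 ratios kept their sign and their side of the 4-fold limit, by whatever amount they moved. The 356 include 27 values without neurons with at least 10 UMIs of Cga, which removed 0 cells and so could not change. The share of cells taken as neurons was 8.63% at 10 or more UMIs of the 4 genes, 4.41% at 40 or more, 8.89% by cluster, and 6.36% to 8.22% with each barcode number left out. At 40 or more UMIs, Sst-high neurons were 18.2% and Tac1-high neurons 7.58%, and the log2 ratio of Pdyn between neurons and other cells was 1.64. With high neurons taken from 5 UMIs, shares were 14.2% for Gal, 4.81% for Trh, 5.72% for Pdyn and 3.43% for Penk. Then 33.9% of Gal-high neurons were Ghrh-high, 38.0% of Tac2-high neurons were Gal-high, and 15.6% of neurons were high for 2 or more peptides. From 20 UMIs, the last 2 were 6.52% and 6.18%, Pdyn was at 0% and Nts at 0.229%. At 1000 CPM, Pdyn was also at 0% and Nts at 0.229%. Under both, only 1 neuron, with 27 UMIs, was Nts-high, so its Tac1-high share of 100% rests on that cell. With each number left out the share was 66.7% to 100%, of at most 4 Nts-high neurons. All Ghrh-high neurons were Gal-high under each of these alternatives. Penk in tanycyte-like cells was 91.8 CPM at resolution 0.5 and 118 CPM at resolution 2. With a pseudocount of 50 CPM, genes higher and lower in high neurons were 1 and 7 for Sst, 2 and 12 for Ghrh, 1 and 5 for Gal, 3 and 13 for Tac2, 1 and 7 for Tac1 and 1 and 8 for Trh. With at least 100 UMIs per gene, genes higher were 3 for Gal, 15 for Tac2, 3 for Tac1 and 3 for Trh. Leaving out the highest cell, an alternative chosen after seeing the data, took the log2 ratio of Avp in Tac1-high neurons to -3.50. All 18 shares moved after thinning to 2000 UMIs, as did all 18 at 1000 UMIs, since thinning takes UMIs away. All 12 counts of genes moved with 50 CPM added, since a larger pseudocount shrinks every ratio. A higher limit for high neurons can likewise not raise the share of neurons that pass it. The cause of the remaining shifts was not tested. No paired analysis was possible because the barcode numbers are not tied to the labelled libraries. With 10 Trh-high neurons or fewer, counting error limits every statement, and both feeding states rest on 1 pool of mice each.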

Other observations

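The peptide genes also mark neurons that the rule missed. Of the cells outside the rule, 22 gene and cell combinations reached 10 UMIs. 13 of these were in neuron-like clusters, in cells with 5 to 19 UMIs of the 4 neuronal genes and 3205 to 7780 UMIs in all, and included 5 of Sst (22 to 58 UMIs), 2 of Tac2 (54 and 66 UMIs), 2 of Tac1 (15 and 105 UMIs) and 1 of Trh (25 UMIs). Penk made up 6 more, all in tanycyte-like cells with 0 to 2 UMIs of the neuronal genes. The remaining 3 were 1 cell each of Gal in a pars tuberalis-like, Penk in an unnamed and Tac1 in a mature oligodendrocyte-like cluster.

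Among the 3 neuron-like clusters, the 65 cells led by Agrp and Npy held Sst at 589 CPM with 10 cells at 10 or more UMIs, and Ghrh, Tac2 and Trh at 1.75, 7.88 and 1.75 CPM with none. The 99 cells led by Scg2, Avp and Vip held Sst at 240 CPM, Tac2 at 200 CPM and Tac1 at 211 CPM, each in 2 or 3 cells at 10 or more UMIs. The 368 cells led by Sst, Snhg11 and Snap25 held Sst at 2412 CPM and all 21 neurons high for Ghrh.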
